A study of Mus musculus with 16 samples.

Results

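Mitochondrial ribosomal proteins were followed in lungs of allergic mice that had been exposed to cigarette smoke before birth. A gene was taken as a member when its symbol on the array began with Mrpl or Mrps followed by a number, and each was read from the brightest of its probe sets that carry a single symbol, by the mean of the 16 arrays. The rule gave 76 genes of the 18193 with such a probe set, 47 named for the large ribosomal subunit (Mrpl) and 29 for the small one (Mrps). They had 156 single-symbol probe sets in all. Mrpl30 and Mrpl53 lay only on probe sets shared with another gene and were not used.

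The lungs came from 16 Balb/c mice of 23 weeks, 4 in each of 4 groups. SHS females (EF) and SHS males (EM) had mothers that breathed sidestream smoke in pregnancy, with a particle load of 10 mg/m3, for 5 h a day on 7 days a week. Air females (AF) and air males (AM) had mothers that breathed filtered air. Every mouse, controls included, received injections of the egg-white allergen ovalbumin (OVA) at 19 and 21 weeks and inhaled it in weeks 22 and 23, so no group shows smoke without allergen. The label SHS stands for second-hand smoke. Litters are not given, so littermates could share a group, and p-values then measure only the spread between these lungs.

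The mitochondrial ribosome is a separate ribosome inside the organelle. It translates only the few proteins that mitochondrial DNA encodes, all of them core subunits of the respiratory chain and of ATP synthase. Its RNAs come from mitochondrial DNA, while all of its proteins are encoded in the nucleus, made in the cytosol and imported. Many of these proteins have counterparts in bacterial ribosomes, and the others were gained in mitochondria. A growing or dividing cell has to build new mitochondria, and with them new ribosomes.

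Values are log2 intensities as the authors normalized them, so a difference of 1 would be a doubling. Only lungs of the same sex were compared. The correlation over probe sets was 0.9587 to 0.9737 between a female and a male array, against 0.9901 to 0.9977 within a sex, and the sexes also stood apart in RNA controls. The 3' minus 5' difference of the Gapdh control was -0.518 to -0.39 in SHS females and -0.483 to -0.409 in air females, against 0.136 to 0.524 in SHS males and 0.251 to 0.362 in air males. SHS and air lungs of the same sex overlapped in this control. The members' mean levels ran from 7.05 for Mrps27 to 11.25 for Mrps14. Lung markers were present on every array, with surfactant protein gene Sftpc at 14.98 to 15.16. The 4 lungs per group limit the precision.

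Mitochondrial ribosomal protein transcripts were slightly higher in SHS lungs than in air lungs of both sexes. Averaged over the sexes, 74 of 76 members had a positive difference, with a median of 0.14 (1.10-fold), against a median of 0.0024 over all genes, of which 50.8% were positive. In the averaged effect 24 members rose (limma's moderated test, Benjamini-Hochberg adjusted p under 0.05 over all 45037 probe sets), and 1, Mrpl39, fell. The risen share was 31.6%, against 9.2% of all genes called higher. For the direction down it was 1.32%, against 4.32% of all genes called lower. Among the 10140 genes whose mean level lay within the members' range, 12% were called higher and the median was 0.01.

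The size of the difference was modest throughout. Of the members, 36 had an averaged difference between 0.1 and 0.2, 20 lay between 0 and 0.1, 13 between 0.2 and 0.3, and 5 exceeded 0.3. The 5 highest were Mrps18b, Mrps12, Mrps25, Mrpl12 and Mrps28. Both of the values below 0 belonged to large-subunit genes, Mrpl9 at -0.02 and Mrpl39 at -0.16.

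**Figure D1:**
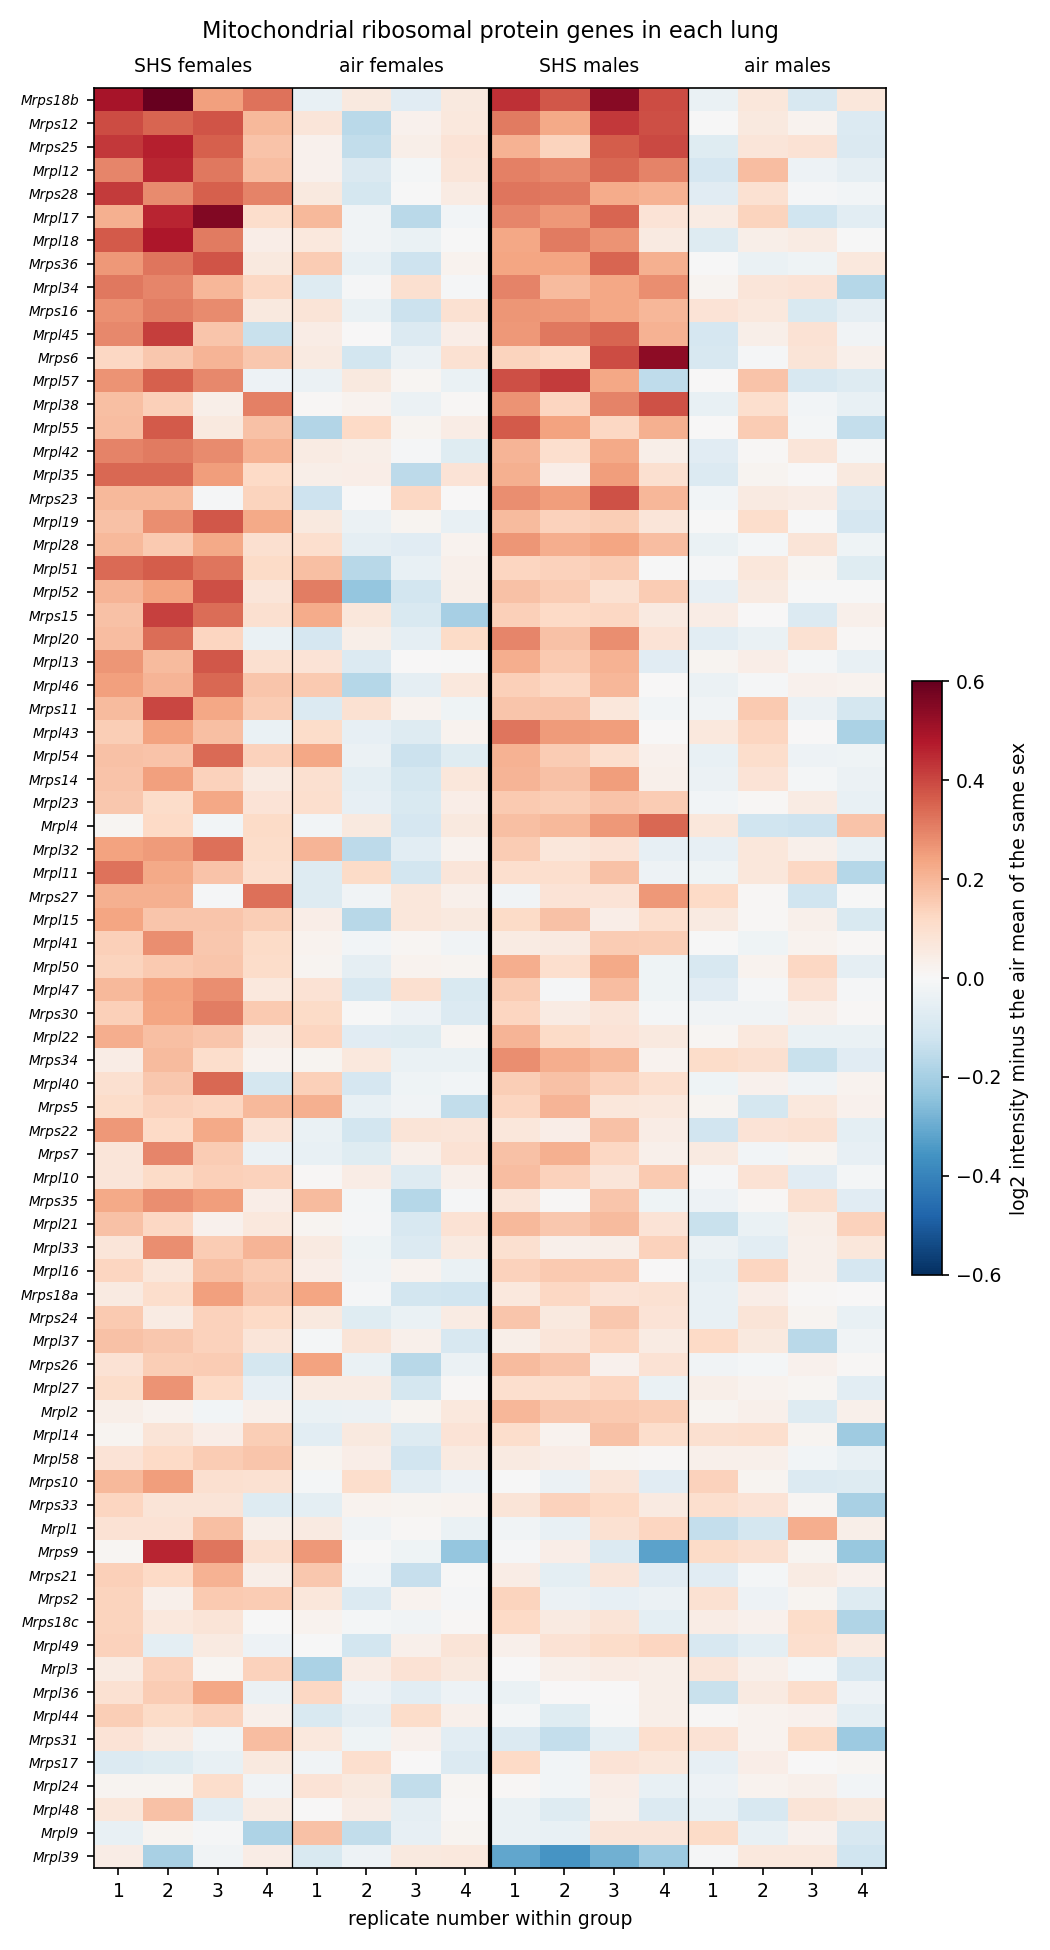
Each row is 1 of the 76 members and each column 1 lung; colour gives the log2 intensity minus the mean of the 4 air lungs of the same sex, and rows run from the highest to the lowest averaged difference. SHS females are left of air females and SHS males left of air males; the SHS columns are red in most rows, palest in lung 4 of each SHS group, and the bottom row, Mrpl39, is blue in SHS males.

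The same shift was seen lung by lung. In SHS females 74, 73, 67 and 62 of the 76 members lay above the mean of the air females, in lungs 1 to 4. In air females the corresponding numbers were 54, 25, 27 and 47. All 4 SHS females were thus above all 4 air females in this count. SHS males had 66, 64, 71 and 56 members above the mean of the air males, and air males had 29, 56, 49 and 22, so SHS male 4 equalled air male 2. Over all genes the share above the air mean was 48.8% to 55.3% in the SHS lungs of both sexes. In the air lungs it was 38.7% to 54.2%. The lowest was air female 3, whose median deviation over all genes was -0.028. Air female 2 had the fewest members above the mean of the air females, with 52.5% of all genes above it.

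The median member deviated from the same-sex air mean by 0.172, 0.191, 0.17 and 0.097 in SHS females, against 0.047, -0.022, -0.037 and 0.019 in air females. In males it was 0.152, 0.127, 0.148 and 0.066 after SHS, against -0.018, 0.033, 0.015 and -0.043 after air. The groups did not overlap in either sex, and the lung numbered 4 was the lowest of both SHS groups. SHS female 4 was the lowest of its group in 48 members and SHS male 4 in 43.

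In SHS females 7 members rose and none fell, with 73 of 76 positive (50.1% of all genes) and a median of 0.16. That is 9.21% of the members, against 3.29% of all genes called higher and 0.676% called lower. In 23 members (30.3%) every SHS female lay above every air female, which held for 7.74% of all genes. At an unadjusted p under 0.05, 38 members were higher, 50% against 13.2% of all genes. With the 8 female arrays fitted alone, no member was called at adjusted p under 0.05 by limma (lowest adjusted p 0.0534, with 31 higher at an unadjusted p under 0.05). In that fit 235 of all genes were called higher, against 599 with both sexes fitted. With both sexes fitted, the count of members called higher was 15 without air female 1, 2 without air female 2 and 3 without air female 3. It was 3, 2 and 2 without SHS female 1, 2 and 3, and 21 without SHS female 4. In these fits the share of all genes called higher moved too. Without air female 1, 2 and 3 the members' shares were 19.7%, 2.63% and 3.95%, against 3.38%, 1.87% and 1.87% of all genes. Without SHS female 1, 2 and 3 they were 3.95%, 2.63% and 2.63%, against 1.86%, 1.9% and 1.9% of all genes. Without SHS female 4 the members' share was 27.6%, against 7.66% of all genes.

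In SHS males 8 members rose and 1 fell, with 67 of 76 positive (52.4% of all genes) and a median of 0.12. The risen share was 10.5%, against 4.17% of all genes called higher, and 2.47% of all genes were called lower. Every SHS male lay above every air male in 22 members (28.9%), against 10.5% of all genes, and below in 1, against 8.53% of all genes. Fitted alone, the 8 male arrays also gave 8 members called higher, with 842 of all genes called higher, against 758 with both sexes fitted. With both sexes fitted, the member count fell to 2, 2 and 4 without air male 1, 3 and 4. It fell to 3, 5 and 1 without SHS male 1, 2 and 3. The member count was 12 without SHS female 4, which enters through the shared estimate of spread. Without air male 1, 3 and 4 the members' shares were 2.63%, 2.63% and 5.26%, against 2.54%, 2.34% and 3.41% of all genes. Without SHS male 1, 2 and 3 they were 3.95%, 6.58% and 1.32%, against 2.4%, 2.74% and 2.17% of all genes. Without SHS female 4 the members' share was 15.8%, against 5.43% of all genes.

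Mrps18b, Mrps12, Mrpl12 and Mrps28 rose in both sexes, against 1.94% of all genes, and 11 members rose in at least 1, against 5.52% of all genes. A positive difference in both sexes was found for 65 members, against 32.7% of all genes, and a negative one in both for Mrpl39 alone, against 30.3% of all genes. In 9 members the groups did not overlap in either sex: Mrpl12, Mrpl34, Mrpl38, Mrpl41, Mrps6, Mrps12, Mrps18b, Mrps25 and Mrps28. The same held for 3.65% of all genes. The sexes did not differ in the effect for any member at adjusted p under 0.05 (limma; lowest adjusted p 0.537), and 1 member, Mrpl39, was higher in females minus males at an unadjusted p under 0.05, against 4.68% of all genes. No gene of the array was called in that comparison, 0% in either direction, so a member called in only 1 sex is not shown to differ between them.

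**Figure D2:**
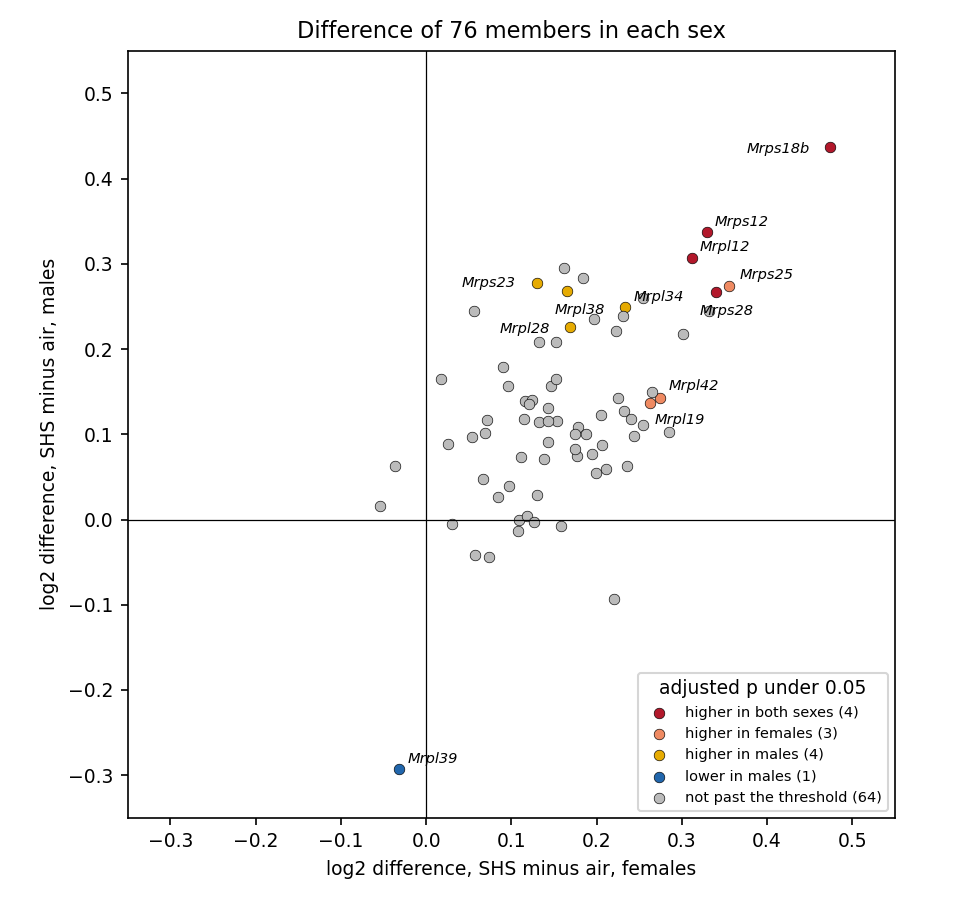
Each point is 1 member, with its log2 difference SHS minus air in females on the horizontal axis and in males on the vertical axis, coloured by the comparison in which its adjusted p was under 0.05. Of the 76 points, 65 lie above and to the right of the zero lines; Mrps18b is farthest out at 0.47 and 0.44, and Mrpl39 lies alone at -0.03 and -0.29.

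Mrps18b had the largest difference of all members. It encodes a small-subunit protein, 1 of 3 mammalian relatives of bacterial ribosomal protein S18, on chromosome 17 at 35910380 to 35916440 of GRCm38.p6. Its level was 9.25, 9.59, 9.003 and 9.08 in SHS females, against 8.71, 8.81, 8.69 and 8.82 in air females. In males it was 9.02, 8.95, 9.12 and 8.97 after SHS, against 8.54, 8.64, 8.48 and 8.64 after air. The groups did not overlap in either sex, and SHS female 2 was the highest lung. The difference was 0.47 ± 0.10 in females (SE; 1.39-fold; limma adjusted p = 0.0132) and 0.44 ± 0.10 in males (1.35-fold; adjusted p = 0.0156). The 2 relatives moved less: Mrps18a had differences of 0.14 ± 0.075 in females and 0.09 ± 0.075 in males, and Mrps18c of 0.07 ± 0.07 and 0.05 ± 0.07, none past the threshold.

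Mrps12 encodes the counterpart of bacterial S12, which lies at the decoding centre of the small subunit, on chromosome 7 at 28739641 to 28741821. Its level was 9.93, 9.89, 9.92 and 9.73 in SHS females, against 9.61, 9.38, 9.56 and 9.60 in air females. SHS males had 9.92, 9.84, 10.04 and 10.00, against 9.61, 9.67, 9.64 and 9.53 in air males. No SHS lung fell within the range of its air group. The difference was 0.33 ± 0.07 in females (1.26-fold; limma adjusted p = 0.0180) and 0.34 ± 0.07 in males (1.26-fold; adjusted p = 0.0117). Its probe set carries the suffix s, which the manufacturer gives to probes that can match more than 1 transcript. The probe sets used for Mrpl19, Mrpl38 and Mrps6, among others, carry the same suffix.

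Mrpl12 encodes the counterpart of the bacterial stalk protein that recruits translation factors to the large subunit, on chromosome 11 at 120484637 to 120488754. SHS females had 9.61, 9.76, 9.63 and 9.50, against 9.34, 9.22, 9.30 and 9.39 in air females. SHS males had 10.00, 9.99, 10.05 and 10.00, against 9.60, 9.89, 9.67 and 9.65 in air males. The SHS males were tightly grouped, and air male 2 came closest to them. The difference was 0.31 ± 0.07 in each sex (1.24-fold in both), with limma adjusted p = 0.0272 in females and 0.0217 in males.

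Mrps28, a further small-subunit protein gene, lies on chromosome 3 at 8802146 to 8923857. Its level was 9.95, 9.82, 9.89 and 9.83 in SHS females, against 9.59, 9.43, 9.53 and 9.58 in air females, and 10.15, 10.14, 10.05 and 10.04 in SHS males, against 9.76, 9.92, 9.82 and 9.81 in air males. It had the smallest averaged p of the members, with an averaged difference of 0.30 ± 0.04 (limma adjusted p = 0.000291). The call in females held in all 16 fits that left out 1 array, as it did for Mrps18b.

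**Figure D3:**
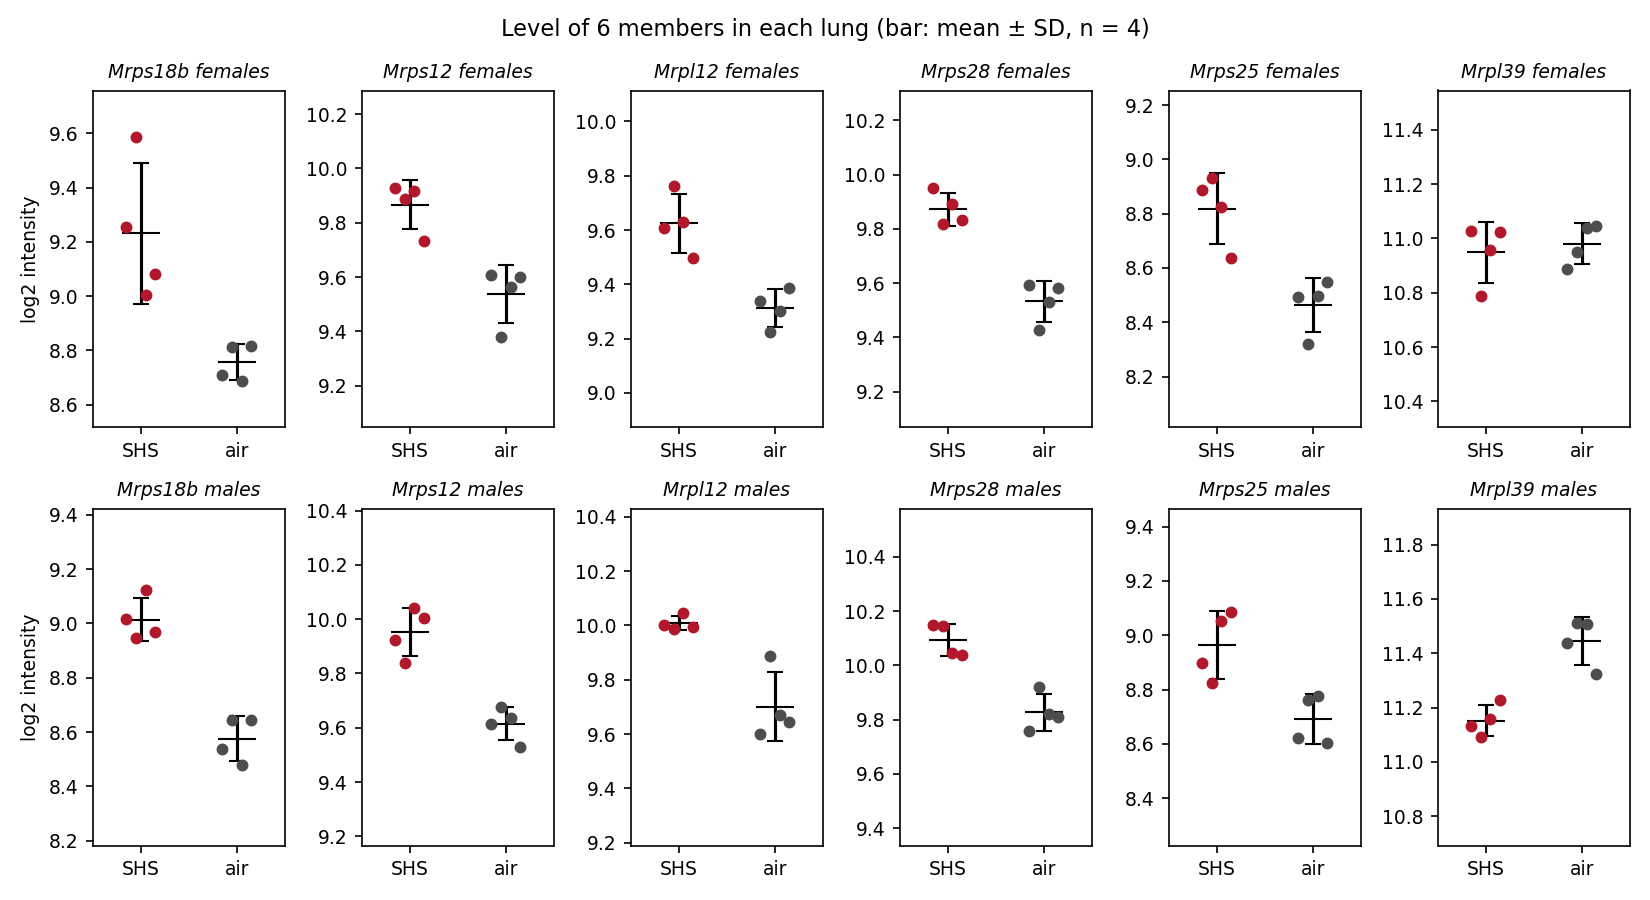
Points are single lungs, with the log2 intensity on the vertical axis of each panel; SHS is left of air, females are in the upper row and males in the lower, and bars give the mean ± SD of 4 lungs. All panels span the same height of log2 units; SHS and air lungs do not overlap for Mrps18b, Mrps12, Mrpl12, Mrps28 and Mrps25 in either sex, and Mrpl39 is lower in SHS males.

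Besides Mrps28 and Mrps18b, the members that rose in females held their call less firmly. Mrps25, a small-subunit protein found only in mitochondrial ribosomes, had 8.89, 8.93, 8.82 and 8.63 in SHS females, against 8.49, 8.32, 8.50 and 8.55 in air females, a difference of 0.36 ± 0.08 (limma adjusted p = 0.0259). In males it differed by 0.27 ± 0.08 (adjusted p = 0.0644), again with no overlap. The other Mrps25 probe sets, at means of 7.21 and 6.15, had 0.11 and -0.01 in females and 0.16 and 0.10 in males. Mrpl42, a large-subunit protein without a bacterial counterpart, had 10.99, 11.004, 10.97 and 10.90 in SHS females, against 10.74, 10.73, 10.68 and 10.62 in air females. These groups were far apart for their spread, at a difference of 0.28 ± 0.06 (limma adjusted p = 0.0230), and in males it was 0.14 (adjusted p = 0.212). Its second probe set, at a mean of only 3.57, had -0.21. Mrpl19, whose bacterial counterpart sits where the subunits meet, had 8.68, 8.78, 8.87 and 8.73 in SHS females, against 8.56, 8.47, 8.52 and 8.46 in air females, a difference of 0.26 ± 0.06 (limma adjusted p = 0.0338). Its second probe set had 0.25 (adjusted p = 0.270).

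Members that rose in males but did not pass the threshold in females were Mrps23, Mrpl38, Mrpl34 and Mrpl28. Mrps23, a mitochondria-specific protein of the small subunit, had 9.02, 8.99, 9.12 and 8.94 in SHS males, against 8.72, 8.79, 8.78 and 8.66 in air males. The groups were apart, with a difference of 0.28 ± 0.07 (limma adjusted p = 0.0306), against 0.13 (adjusted p = 0.396) in females, where they overlapped. A second Mrps23 probe set, at a mean of 8.70, had 0.16 in males (adjusted p = 0.221) and 0.24 in females (adjusted p = 0.0979). A dimmer one, at a mean of 5.46, had 0.23 in males and 0.16 in females. Mrpl38, a mitochondria-specific protein of the large subunit, had 8.22, 8.08, 8.25 and 8.34 in SHS males, against 7.91, 8.06, 7.94 and 7.91 in air males. Its lowest SHS male was barely above air male 2, and the difference was 0.27 ± 0.07 (adjusted p = 0.0356). The other Mrpl38 probe sets, at means of 7.53 and 5.82, had 0.04 and 0.21 in males and -0.15 and 0.12 in females. Mrpl34 and Mrpl28, both counterparts of bacterial large-subunit proteins, differed by 0.25 ± 0.07 (adjusted p = 0.0499) and 0.23 ± 0.06 (adjusted p = 0.0380). Mrpl34 had 9.30, 9.19, 9.24 and 9.28 in SHS males, against 9.02, 9.08, 9.09 and 8.84 in air males. Its call was the least firm of the males', holding in 3 of the 16 fits without 1 array. A second probe set of Mrpl28 gave 0.24 (adjusted p = 0.0421), while that of Mrpl34 gave -0.04 at a mean of 6.59.

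In the averaged effect the calls of these named higher members held in all 16 such fits. Others of the 24 were not called in a single sex. The largest of them was Mrpl17, a large-subunit protein with a bacterial counterpart, at 0.29 ± 0.07 (1.22-fold; limma adjusted p = 0.0150). It had 10.01, 10.26, 10.36 and 9.91 in SHS females, against 9.998, 9.78, 9.64 and 9.79 in air females, and 10.21, 10.17, 10.26 and 9.996 in SHS males, against 9.96, 10.05, 9.80 and 9.85 in air males. The lung numbered 4 overlapped the air lungs in both sexes. The other Mrpl17 probe sets, at means of 6.53 and 5.74, had averaged differences of -0.10 and -0.09. Mrpl18, the counterpart of the bacterial protein that binds 5S rRNA, had 0.26 ± 0.06, Mrps16 had 0.24 ± 0.05, and Mrps6 had 0.23 ± 0.06. Mrpl45, a mitochondria-specific protein at the exit of the peptide tunnel, had 0.23 ± 0.06, and Mrpl55 had 0.22 ± 0.06. Mrpl35, Mrpl51, Mrpl13, Mrpl46, Mrpl23 and Mrpl41 followed, from 0.21 down to 0.14.

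Mrpl39 was the exception. It encodes a large-subunit protein related to threonyl-tRNA synthetases and lies on chromosome 16 at 84718281 to 84735244. Its level was 11.13, 11.09, 11.16 and 11.23 in SHS males, against 11.44, 11.51, 11.51 and 11.32 in air males, so every SHS male was below every air male. It fell by 0.29 ± 0.07 on the log2 scale in males (0.82-fold; limma adjusted p = 0.0234), a call that held in 10 of 16 fits without 1 array. The averaged call (adjusted p = 0.0479) held in 4. In females the groups overlapped, with 11.03, 10.79, 10.96 and 11.03 after SHS, against 10.89, 10.95, 11.04 and 11.05 after air. The sexes differed in this effect by 0.26 ± 0.10 (females minus males; unadjusted p = 0.0184, adjusted p = 0.537). A second Mrpl39 probe set, at a mean of 9.28 against 11.13, showed 0.04 in males and 0.05 in females, so the fall was seen on 1 of 2 probe sets.

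Some members were close to level. The 4 with the smallest averaged difference were Mrpl48 at 0.01 ± 0.05, Mrpl24 at 0.01 ± 0.04, Mrps17 at 0.01 ± 0.04 and Mrps31 at 0.01 ± 0.06. Mrpl9 and Mrps17, like Mrpl39, were below 0 in females, at -0.05 and -0.04. Mrps9, a counterpart of a bacterial small-subunit protein, stood at 0.22 ± 0.12 in females and -0.09 ± 0.12 in males. It had 4 probe sets, and a lower one (mean 8.24) was called lower in males at -0.35 (limma adjusted p = 0.0403) with 0.00 in females. Mrpl2, whose bacterial counterpart lies near the peptidyl transferase centre, had 0.02 ± 0.06 in females and 0.17 ± 0.06 in males (adjusted p = 0.0958).

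The shift was spread over both subunits. In the averaged effect 16 of 47 Mrpl genes (34%) rose and 1 fell, with a median of 0.14. Of 29 Mrps genes 8 (27.6%) rose and none fell, with a median of 0.13. By sex the Mrpl medians were 0.15 in females and 0.12 in males, and the Mrps medians 0.16 and 0.11. Of the 46 members with a bacterial counterpart 14 rose and none fell in the averaged effect (median 0.14). Of the 30 found only in mitochondrial ribosomes 10 rose and 1 fell (median 0.14). Over all genes 9.2% were called higher and 4.32% lower in the averaged effect. The symbol is not always the place: Mrps18a and Mrps30 sit in the large subunit of the known structures, and Mrps36, at an averaged 0.26 ± 0.06 (limma adjusted p = 0.00510), is now assigned to an enzyme complex of the citric acid cycle.

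The members' other probe sets numbered 80, for 42 members, and were often dim. In females 52 of 80 were positive with a median of 0.07, against 47.2% positive among all probe sets of the array. In females 5 of them (6.25%) were called higher, of Mrpl1, Mrpl13, Mrpl41 and 2 of Mrpl15, against 2.36% of all probe sets, and none lower, against 0.517%. In males 49 were positive with a median of 0.04, against 49.4% of all probe sets. There 3 (3.75%) were called higher, of Mrpl15, Mrpl27 and Mrpl28, which is near the 3.07% of all probe sets, and 1 lower, of Mrps9, against 2.11%. Of the brighter 43, those above 7.02, the median level on the array, 40 were positive in females (median 0.16) and 28 in males (median 0.06). They belonged to 27 genes. Among all genes within the members' range of mean level 56.2% were positive in females and 51.5% in males. No probe set of the array was called for a difference between the sexes. The members named for their other probe sets were chosen after their values were seen.

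**Figure D4:**
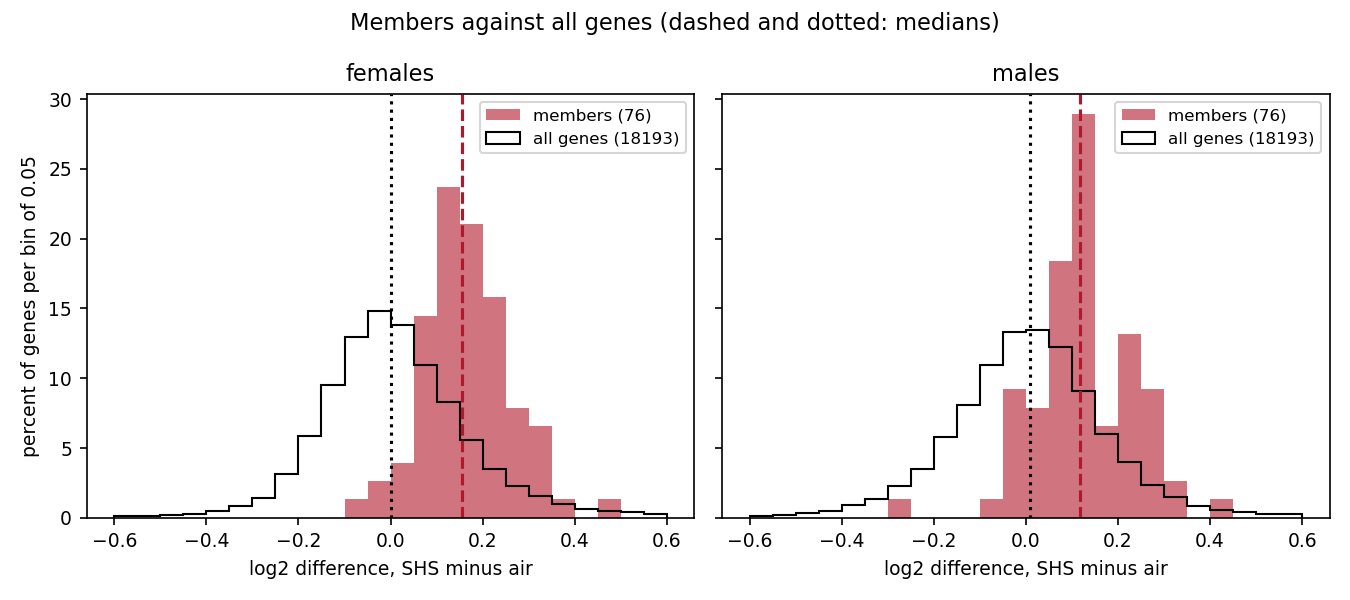
Histograms of the log2 difference SHS minus air, in percent of genes per bin of 0.05, for the 76 members (red) and all 18193 genes (black line), with females left and males right; vertical lines mark the medians. Member medians are 0.156 in females and 0.117 in males, against 0.0003 and 0.0084 over all genes, and the member bars are centred to the right of the outline of all genes but overlap it, with Mrpl39 alone far to the left in males.

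Promoters of the members whose values stood out were read from RefSeq on GRCm38.p6, from 250 bases before to 50 after the transcription start, 5' to 3' on the gene's strand. Mrps18b, Mrps12 and Mrpl12 are shown because they rose in both sexes, Mrpl39 because it fell in males, and Mrps11 because its start lies 42 bases from that of another member, Mrpl46. Mrps28 had no entry. Capitals mark matches, on either strand, to the cores bound by nuclear respiratory factor 1 (GCGCATG), by ETS factors such as GABP (CCGGAAG) and by YY1 (AAGATGG), and to the CCAAT box. The windows are chr17:35916391-35916690 (minus strand) for Mrps18b, chr7:28741772-28742071 (minus) for Mrps12, chr11:120484387-120484686 (plus) for Mrpl12, chr16:84735195-84735494 (minus) for Mrpl39 and chr7:78782881-78783180 (plus) for Mrps11.
Mrps18b: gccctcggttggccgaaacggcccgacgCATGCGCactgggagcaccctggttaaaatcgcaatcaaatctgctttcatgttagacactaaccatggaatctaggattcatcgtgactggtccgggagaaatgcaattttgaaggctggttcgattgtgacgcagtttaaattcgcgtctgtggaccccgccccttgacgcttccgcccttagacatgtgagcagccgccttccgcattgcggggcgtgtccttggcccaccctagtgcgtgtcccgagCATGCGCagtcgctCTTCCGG
Mrps12: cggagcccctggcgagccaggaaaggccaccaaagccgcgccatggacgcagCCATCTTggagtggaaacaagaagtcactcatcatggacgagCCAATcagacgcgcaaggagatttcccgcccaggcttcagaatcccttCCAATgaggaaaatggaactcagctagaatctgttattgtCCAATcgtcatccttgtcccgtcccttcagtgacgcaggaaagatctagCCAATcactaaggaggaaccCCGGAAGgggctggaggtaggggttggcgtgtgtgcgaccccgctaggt
Mrpl12: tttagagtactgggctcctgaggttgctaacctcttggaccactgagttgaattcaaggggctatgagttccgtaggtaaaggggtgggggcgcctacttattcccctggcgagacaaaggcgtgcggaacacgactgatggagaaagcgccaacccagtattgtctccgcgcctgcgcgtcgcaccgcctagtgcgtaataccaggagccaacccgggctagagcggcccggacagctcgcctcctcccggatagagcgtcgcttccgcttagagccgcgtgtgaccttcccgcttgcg
Mrpl39: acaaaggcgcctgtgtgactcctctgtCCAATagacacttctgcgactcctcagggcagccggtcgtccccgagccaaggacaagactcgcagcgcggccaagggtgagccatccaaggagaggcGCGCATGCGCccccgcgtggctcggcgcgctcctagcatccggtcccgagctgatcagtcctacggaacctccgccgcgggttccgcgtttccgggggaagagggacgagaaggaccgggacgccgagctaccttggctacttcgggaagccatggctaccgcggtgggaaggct
Mrps11: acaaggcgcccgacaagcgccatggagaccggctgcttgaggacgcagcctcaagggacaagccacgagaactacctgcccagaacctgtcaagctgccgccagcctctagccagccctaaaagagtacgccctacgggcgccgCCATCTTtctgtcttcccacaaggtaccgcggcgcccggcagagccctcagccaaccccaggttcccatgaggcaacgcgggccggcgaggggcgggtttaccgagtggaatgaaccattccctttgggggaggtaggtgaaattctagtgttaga

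The Mrps18b window held 2 matches to the respiratory factor core, starting at bases 29 and 280, and 1 to the ETS core at base 294. That of Mrps12 held 1 YY1 match, 4 CCAAT boxes and 1 ETS match. Mrpl39 had overlapping matches to the respiratory factor core at bases 126 and 129 and a CCAAT box, so the member that fell had a motif in common with the one that differed most. None of these letters occurred in the Mrpl12 window.

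RefSeq gave 73 promoters for 67 members. The ETS core was in 34.2% of them, against 8.86% of all 32851 promoters and 13% of the 18009 promoters of genes measured on the array. The respiratory factor core was in 11%, against 3.91% and 5.43%, and the YY1 core in 17.8%, against 6.34% and 6.39%. The CCAAT box was in 39.7%, against 37.4% of each set, and the E-box CACGTG, a palindrome, in 9.59%, against 7.15% and 8.74%. At least 1 of the ETS, YY1 and respiratory factor cores was in 50.7%, against 17.5% and 22.4%. The median GC content was 58.7%, against 52.7% and 58.3%. Members with and without the ETS core had averaged medians of 0.1346 (25 genes) and 0.1337 (42 genes), and with and without the YY1 core 0.14 (13 genes) and 0.13 (54 genes). With the respiratory factor core it was 0.13 in 8 genes and without it 0.14 in 59. The 5 genes with the E-box had a median of 0.0915, against 0.1355 in the 62 without it, and those with the CCAAT box 0.136 (26 genes), against 0.1321 (41 genes).

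Many members start back to back with another gene. An opposite-strand start within 1000 bases was found for 26 of 67 members, 38.8%, against 12.9% of all genes with a promoter entry and 16.8% of the measured ones, a feature chosen after the values were seen. The partners did not follow a single pattern. Ncapd2, a condensin subunit gene paired with Mrpl51, differed by 0.83 in females and 0.79 in males, while Mrpl51 differed by 0.29 and 0.10. Ppp1r10, across from Mrps18b at 756 bases, had -0.24 and -0.06. Sars2, the mitochondrial seryl-tRNA synthetase 147 bases from Mrps12, had 0.15 and 0.00. Mrpl46 and Mrps11 differed alike, by 0.24 and 0.24 in females and 0.12 and 0.10 in males.

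Other parts of mitochondrial gene expression were set beside the members. Of 5 measured genes listed with the mitochondrial ribosome under other names, 2 (40%, against 9.2% of all genes) rose in the averaged effect. They were Gadd45gip1 at 0.27 ± 0.05 (limma adjusted p = 0.00305) and Chchd1 at 0.16 ± 0.05 (adjusted p = 0.0250), both ribosomal proteins despite their names. Another of the 5, Oxa1l, is not a ribosomal protein and had -0.035 ± 0.08. Among 15 translation factors 3 rose in the averaged effect: Tufm, the elongation factor that delivers tRNAs, at 0.29 ± 0.05, Lrpprc, which stabilizes mitochondrial mRNAs, at 0.19 ± 0.06, and Gfm1, the translocation factor, at 0.14 ± 0.04. The median of that list was 0.11, and 20% of it was called higher in the averaged effect, against 9.2% of all genes. Tufm passed the threshold in males, at 0.34 ± 0.07 (adjusted p = 0.00644), and not in females, at 0.23 (adjusted p = 0.0736).

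Factors that build and charge the translation machinery were read next. Of 16 mitochondrial aminoacyl-tRNA synthetases, which load amino acids on tRNAs, 1 rose in the averaged effect, Rars2 at 0.15 ± 0.04 (limma adjusted p = 0.0240), and the list median was 0.05. Of 19 genes for ribosome assembly and rRNA modification 2 rose, the GTPase gene Noa1 at 0.25 ± 0.06 and the rRNA methyltransferase gene Tfb1m at 0.19 ± 0.06, with a median of 0.03. Fastkd2, an RNA-binding protein of mitochondrial RNA granules, rose by 0.37 ± 0.07 in females (adjusted p = 0.00797) and had -0.15 ± 0.07 in males (adjusted p = 0.249); like every other gene, it was not called for a difference between the sexes. Of 15 genes of mitochondrial transcription and DNA maintenance 1 rose, Hsd17b10, a subunit of the enzyme that trims tRNA ends, at 0.29 ± 0.05 (adjusted p = 0.00127). In the averaged effect 6.25% of the synthetases, 10.5% of the assembly genes and 6.67% of the transcription genes were called higher. The share of all genes was 9.2%, so these lists lay near or below it.

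Import and respiratory chain genes were also higher in SHS lungs. Of 23 import and chaperone genes 13 (56.5%, against 9.2% of all genes) rose in the averaged effect and none fell, with a median of 0.17. Tomm40, the channel of the outer membrane through which the ribosomal proteins enter, rose by 0.39 ± 0.07 in females (limma adjusted p = 0.00643) and 0.39 ± 0.07 in males (adjusted p = 0.00534). Of 40 oxidative phosphorylation subunits 5 rose in females and 15 in males, with medians of 0.17 and 0.20, and 21 in the averaged effect. These were 12.5%, 37.5% and 52.5% of the list, against 3.29%, 4.17% and 9.2% of all genes. Atp5g1, a subunit of the rotor of ATP synthase, had 0.48 ± 0.08 in females and 0.60 ± 0.08 in males, and cytochrome c (Cycs), which carries electrons to the last complex of the chain, had 0.50 ± 0.09 and 0.36 ± 0.09. Cycs was the highest of the list in females and Atp5g1 in males. Cardiac muscle markers, 10 genes of the muscle sleeves of pulmonary veins, a tissue rich in mitochondria, had list medians of 0.39 to 0.94 in SHS males, against -0.66 to 0.57 in air males, with none called. Their summed intensity was 8802 to 12100 in SHS males, against 4930 to 9731 in air males. In females the list medians were -0.74 to 0.34 after SHS, against -0.85 to 0.56 after air. Markers of other tissues rich in mitochondria were set beside them. The 4 brown fat genes measured, among them the uncoupling protein gene Ucp1, had list medians of 0.312 to 0.402 in SHS males, against -0.322 to 0.289 in air males. The 7 skeletal muscle genes had 0.123 to 0.264 in SHS males, against -0.052 to 0.073 in air males. Neither list overlapped between the male groups, while their summed intensities did, at 1053 to 1130 in SHS males, against 663.7 to 1179 in air males for brown fat, and 573.8 to 694 in SHS males, against 413.5 to 646.2 in air males for skeletal muscle. In females both lists overlapped, with medians of -0.491 to 0.734 after SHS, against -0.364 to 0.324 after air for brown fat, and -0.108 to 0.071 after SHS, against -0.061 to 0.147 after air for skeletal muscle. None of these genes was called in either sex. The part of the 3 lists in the male values was not tested.

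Cytosolic ribosomal proteins, which make up the ribosome that synthesizes nearly all cell proteins, were read in the same way. Of 41 measured, none was called in females and 3 rose in males, Rpl12, Rps25 and Rps2, with medians of 0.08 and 0.04. In the averaged effect 6 rose, 14.6% against 9.2% of all genes, with a median of 0.06. No difference between these lists and the members was tested.

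**Figure D5:**
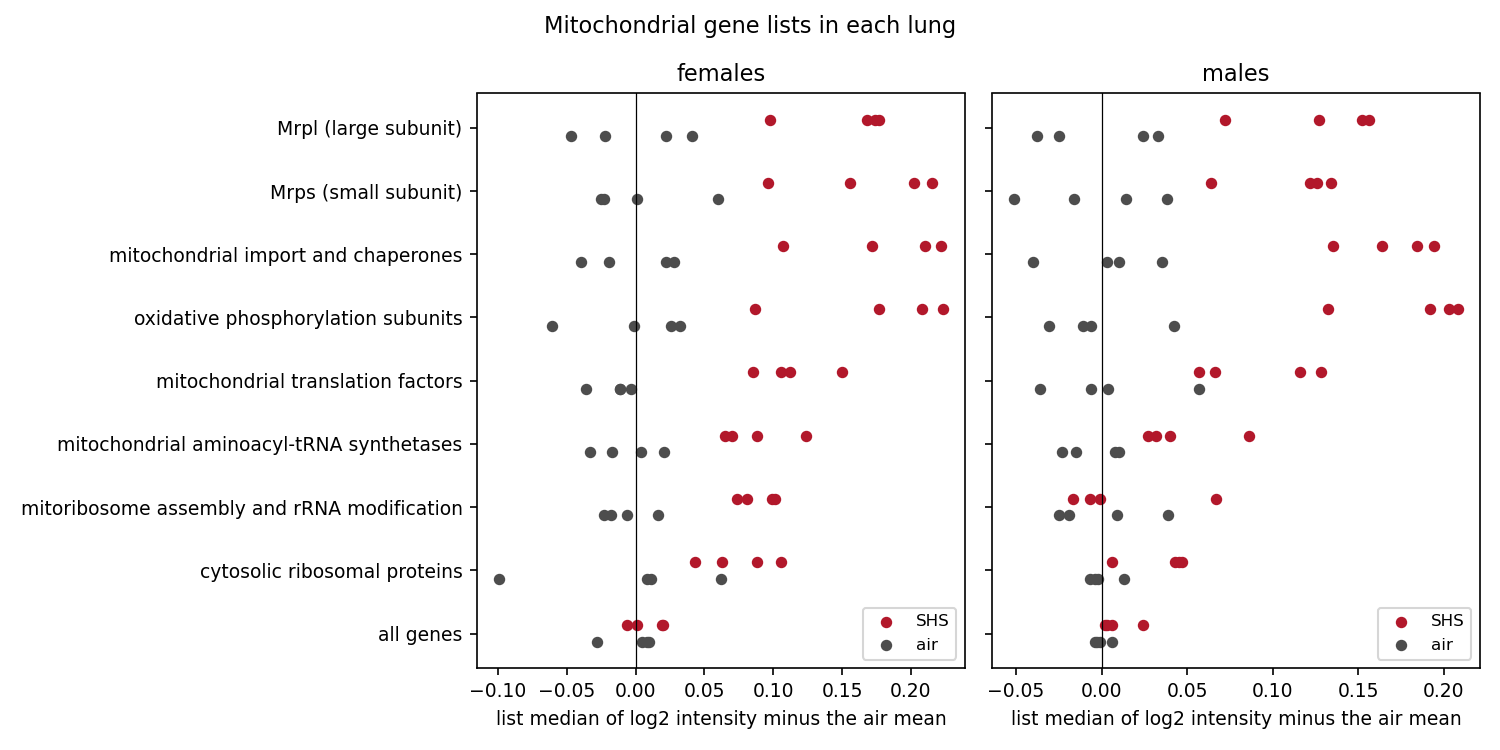
Each point is 1 lung, placed at the median over the genes of a list of the log2 intensity minus the same-sex air mean; females are left and males right, SHS points are drawn above air points. The SHS and air lungs do not overlap for either ribosomal subunit, for import or for oxidative phosphorylation in either sex, while cytosolic ribosomal proteins overlap, at 0.043 to 0.106 in SHS females and 0.006 to 0.047 in SHS males. By the same measure the aminoacyl-tRNA synthetases did not overlap either, at 0.065 to 0.124 in SHS females, against -0.033 to 0.021 in air females. In males they had 0.027 to 0.086 after SHS, against -0.023 to 0.01 after air. Translation factors and assembly genes were apart in females only.

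Regulators of mitochondrial gene expression and cell division were also read. Of 9 regulators 3 (33.3%, against 9.2% of all genes) rose in the averaged effect: Myc, a growth factor-responsive transcription factor, at 0.53 ± 0.08, Ppargc1b, a coactivator, at 0.30 ± 0.08, and the related Pprc1 at 0.25 ± 0.06. Of the 9, 5 were positive in the averaged effect, 7 in females and 5 in males. The list median was 0.14 in females and 0.04 in males. Myc passed the threshold in females, at 0.67 ± 0.12 (limma adjusted p = 0.00450). Pink1, a kinase that marks damaged mitochondria for removal, fell by 0.41 ± 0.10 on the log2 scale in males (adjusted p = 0.0288), with -0.26 in females. Of 24 measured cell cycle genes 23 rose in each sex, with medians of 0.91 in females and 0.75 in males, and Birc5, a survivin gene used in cell division, rose by 1.38 ± 0.15 in females and 1.43 ± 0.15 in males.

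The cell cycle list was lowest in the same SHS lungs as the members. The list median was 0.86, 1.166, 1.067 and 0.472 in SHS females, against 0.109, -0.098, -0.03 and 0.024 in air females. In males it was 0.8, 0.811, 0.836 and 0.524 after SHS, against -0.114, 0.092, -0.104 and 0.077 after air. SHS lung 4 was the lowest of both groups, as for the members. The same 2 lungs were lowest in the eosinophil list of 4 genes, at -0.891 in SHS female 4 and -0.791 in SHS male 4, where the other SHS lungs had 0.029 to 0.83. They were also the lowest of their SHS groups in the T cell list (0.037 and -0.027), the B cell list (0.073 and -0.165), the plasma cell list (-0.011 and -0.393), the macrophage list (-0.051 and 0.003), the import list (0.107 and 0.135) and the oxidative phosphorylation list (0.087 and 0.132). Not every list was low in these lungs. They were the highest of their SHS groups in the neutrophil list (0.443 and 0.26) and the epithelial list (0.034 and 0.13). For translation factors SHS female 4 was the lowest of its group (0.085) and SHS male 4 the highest (0.128). Without both of them the median member difference was 0.18 in females and 0.14 in males, and 22 of 76 members rose in females, against 8.15% of all genes in that fit, and 40 in the averaged effect, against 12.5% of all genes. The part of these lists in the member values was not tested.

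Markers of other cells were read as lists. Epithelial markers had medians of -0.0048 in females and 0.05 in males, with 0 of 8 called by limma. The macrophage list had medians of 0.23 in females and 0.11 in males, with summed intensities of 11910 to 18090 in SHS females, against 10750 to 13050 in air females, and 11890 to 13750 in SHS males, against 10610 to 12190 in air males. In each sex 1 of its 7 genes was called, Mrc1, a mannose receptor gene, at 0.72 ± 0.12 in females and 0.66 ± 0.12 in males. The B cell list had medians of 0.34 and 0.03, with summed intensities of 3199 to 5357 in SHS females, against 2609 to 3580 in air females, and 2664 to 4408 in SHS males, against 2539 to 3665 in air males. In each sex 1 of its 6 genes was called, Fcer2a, the low-affinity IgE receptor gene, at 1.03 ± 0.24 and 0.89 ± 0.24. T cell and neutrophil lists had medians of 0.23 and 0.30 in females and 0.01 and 0.19 in males, with none called in either sex. The part of these cells in the member values was not tested. In whole lung, more cells that hold many mitochondria and more RNA per cell cannot be told apart.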

How the data were processed

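Total RNA of 16 left lungs was hybridized to Affymetrix Mouse Genome 430 2.0 arrays, per the labels. The authors deposited log2 intensities, normalized between arrays by a method not given in the sources used here; limma is named without a version, per the submitters' processing notes. Detection calls were not used here. The values were used as deposited. After 64 control probe sets were left out, the 4 group means of 45037 probe sets were fitted with limma 3.58.1 in R 4.3.3 (12 residual and 5.56 prior degrees of freedom). SHS was compared with air in females, in males, averaged over the sexes, and between them, with two-sided moderated tests, Benjamini-Hochberg adjustment over all probe sets and calls at adjusted p under 0.05. Errors of differences are standard errors of the model. The steps were tested on simulated data.

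The members and lists were chosen with earlier results of these data known. The cytosolic ribosomal list was limited to plain protein symbols after its values were seen. Members were named by a rule: in each sex up to 12 called members with the largest difference per direction, and the 4 smallest p where fewer than 6 were called; the 4 smallest p and 4 smallest differences averaged; the 3 smallest p between the sexes; the Mrps18 relatives; any member with probe sets called in opposite directions (none); and up to 4 called genes of each list, or the 2 smallest p where none was called, of which examples are given. Members outside it (those listed by group separation or averaged call, Mrps36, Mrpl51, Mrpl46 and Mrps11) and partner genes were chosen after their values were seen. All 76 members were matched by Entrez identifier to RefSeq.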

Additional observations from a re-analysis of the deposited data

Results flagged for a closer look

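Of 176 groups of 4 lungs checked for a lung apart from the rest by Dixon's test, 9 had one, and chance gives about 1 in 20. Among members, air male 3 had an Mrpl2 level of 9.524, against 9.62 to 9.635 in the other air males, and air male 2 an Mrpl38 level of 8.058, against 7.912 to 7.936. List medians, as deviations from the same-sex air mean, stood apart in 7 cases. SHS male 4 had 0.524 for the cell cycle list (other SHS males 0.8 to 0.836), 0.006 for cytosolic ribosomal proteins (0.043 to 0.047) and 0.651 for red cell markers (-0.402 to -0.301). SHS male 3 had -0.057 for mitophagy genes (-0.104 to -0.099), and SHS female 2 had 0.024 for mitochondrial transcription genes (0.107 to 0.121). Air male 1 had -0.057 for the list of ribosome genes outside the symbol rule, Oxa1l included (0.006 to 0.012), and -0.028 for epithelial markers (0.007 to 0.014).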

How the results depend on the processing

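Member medians of SHS against air stayed above 0 under every alternative run, and no alternative called a member for a difference between the sexes. Counts of calls moved, and those of all genes moved too. Genes called higher in females numbered 599 in the main fit and 235 with the female arrays alone. They numbered 1483 without both SHS lungs numbered 4 and 1007 at adjusted p under 0.10. For several other alternatives no all-gene count is given here, so those member counts stand without a background. Members higher in females (7) numbered 3 with quantile normalization within each sex, 13 without probe sets below the 40th percentile, 24 with array weights, 0 with the 8 female arrays alone, 22 without both SHS lungs numbered 4, 16 at adjusted p under 0.10 and 4 with a fold minimum as well. In males (8 higher, 1 lower) they numbered 14 with the filter, 13 with a trended robust prior, 14 with array weights, 15 at adjusted p under 0.10 and 2 with the fold minimum, where none was lower. Averaged (24 higher, 1 lower), they numbered 37 with the filter, 46 with array weights, 40 without both lungs numbered 4, 40 at adjusted p under 0.10 and 2 with the fold minimum, where none was lower. With the mean over a gene's probe sets none was lower in males or averaged. The second-highest probe set, which 42 members have, gave 3 higher in females (median 0.0945), 2 in males (0.0233) and 8 averaged (0.0502), none lower in males or averaged; there Mrpl42 had -0.214 in females and -0.1477 averaged, Mrpl39 0.036 in males and 0.0439 averaged, Mrpl34 -0.0387 and -0.0941, and Mrpl38 -0.0508 averaged. The cause was not tested.

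Leaving out each array gave 2 (without air female 2, among others) to 21 (without SHS female 4) higher in females, 1 (without SHS male 3) to 12 (without SHS female 4) in males with 0 to 1 lower, and 17 (without SHS female 1, among others) to 36 (without SHS female 4) averaged with 0 to 1 lower. Averaged, the members' share was 22.4% without SHS female 1, against 7.53% of all genes, and 47.4% without SHS female 4, against 11.9%. Member medians in females, males and averaged ran from 0.1421 to 0.1828, 0.1055 to 0.1365 and 0.1307 to 0.1525, and positive members numbered 72 to 74, 64 to 70 and 72 to 75. All-gene calls in females were 599 higher and 123 lower, or 473 and 196 after quantile normalization within each sex. With the replicate number as a block (replicate block) 2 members were higher in females and 3 in males, and none was lower in males or averaged. Same-numbered SHS and air lungs correlated at -0.08 to 0.27 in females and 0.02 to 0.12 in males. The best match was the same number for replicate 2 in both sexes and replicate 4 in females, and another number otherwise. This check cannot exclude a shared litter or batch, because low correlations do not show that lungs were handled apart. Lungs of the same number were not compared across the sexes. The 4 lungs per group limit what can be called.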
